A study of Mus musculus with 28 samples.

Results

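Transforming growth factor beta (TGF-beta) genes were followed in leukocytes sorted from mouse tumours. The set comprised 9 genes picked by name: the ligands Tgfb1, Tgfb2 and Tgfb3, the receptors Tgfbr1 and Tgfbr2, the ligand activators Itgb8 and Lrrc32, the signalling inhibitor Smad7 and the TGF-beta-induced matrix gene Tgfbi. A probe set was named for 7 of the 9, among 17097 genes measured. Itgb8 and Lrrc32 had no probe set named in the probe annotation and were not analysed here, so the activators of the set have no value below.

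TGF-beta is secreted as a latent complex and has to be released before it can signal. Integrin alpha-v beta-8 (its beta chain is Itgb8) releases it from complexes that the surface protein GARP (Lrrc32) holds on regulatory T cells, and integrins, thrombospondin and metalloproteinases release it elsewhere. The free ligand binds TGFBR2, which phosphorylates TGFBR1, and TGFBR1 phosphorylates SMAD2 and SMAD3, which enter the nucleus with SMAD4. SMAD7 is induced by the pathway and blocks TGFBR1. In tumours, TGF-beta is known for restraining cytotoxic T cells, for supporting regulatory T cells and for driving fibroblasts to make matrix.

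Each array measured RNA of CD45+ cells, the pan-leukocyte gate, sorted from tumours and lysed without culture. The tested hosts carried Nrp1L/LFoxp3Cre-YFP, in which Cre made from the Foxp3 gene removes the floxed Nrp1 gene (neuropilin-1, a co-receptor for semaphorins and VEGF) in cells that express Foxp3, mainly regulatory T cells. The control hosts carried Foxp3Cre-YFP alone, so both genotypes had the Cre. Tumours were B16.F10, a mouse melanoma line (B16 below), or MC38, a mouse colon carcinoma line. The 12 groups were Nrp1-deleted and control hosts with B16 tumours at an early day, day 12 and day 18 and with MC38 tumours at days 6, 12 and 18. The early B16 arrays are titled day 8, and their source names say day 6. B16 day 18 and MC38 day 12 had 3 arrays per genotype, and the other settings had 2. The labels do not say whether the arrays of a group came from separate animals, so the tests see only the array-to-array spread, which may be technical.

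The deposited values are log2 intensities with a median of 3.64 over all probe sets and arrays, and the highest value was 13.8. By the shape of their values the arrays fell into 3 sets, as they would if each had been normalized apart: early and day 12 B16; B16 day 18 with MC38 day 12; and MC38 days 6 and 18. Genotypes were compared within a set, times only where both days shared a set, and levels across sets carry this limit. Nrp1 was lower on every Nrp1-deleted array than on every control array in each of the 6 settings, as 15.8% to 32.6% of all genes were by setting. The fall was 0.84 ± 0.09 (log2 ± SE) on average (adjusted p = 1.65e-07). Its change was -1.13 in B16 and -0.54 in MC38, and these effects differed (limma, adjusted p = 0.0231). Nrp1 passed in each B16 setting (adjusted p up to 0.00491). In MC38 it did not pass at days 6, 12 or 18 taken singly (adjusted p = 0.121, 0.308 and 0.103). Genes of the leukocyte gate (Ptprc, Coro1a, Cd53, Cd52 and Laptm5) lay above the median on all 28 arrays. Foxp3, whose promoter drives the Cre, lay below the median on all 28 arrays, with a highest value of 3.44. Other genes listed for regulatory T cells, Il2ra, Ctla4, Ikzf2, Tnfrsf18, Tnfrsf4 and Izumo1r, lay above it on all 28, and Ccr8 on 13. Of the 8 with Foxp3, 4 were higher in Nrp1-deleted hosts over the 6 settings and 0 were lower (limma, adjusted p under 0.05). Of all genes, 11.0% were higher and 17.9% were lower. Despite the leukocyte gate, pigment-cell genes were present in the B16 samples, where a mean over 10 of them reached 10.3 in day 18 control arrays. In such bulk samples, fewer cells of a type and less RNA per cell cannot be told apart.

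Of the 7 measured genes, 3 were lower in Nrp1-deleted hosts and none was higher on average over the 6 settings, where 28.8% of all genes passed the same test and 17.9% passed as lower (limma, adjusted p under 0.05). These were Tgfbi, Tgfb3 and Tgfbr1. Within a tumour, Tgfbi and Tgfb1 fell in B16, and Tgfb3 and Tgfbr1 fell in MC38. Tgfbr2, which had no call on average, rose in B16. The effect differed between the tumours for Tgfbi, Tgfbr2 and Tgfb1 and was not shown to differ for Tgfb3 or Tgfbr1. Both Tgfb1 calls were lost on leaving out single arrays, as given below. The median change of the 7 genes was -0.07, against -0.03 over all genes.

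Promoters of Tgfbi, Tgfbr1 and Tgfbr2, 3 of the genes with a genotype call, are shown for their sequence content, and that of Tgfb3 was not analysed here. Each is the 250 bases before the RefSeq start, on the gene's own strand, in GRCm38.p6, with the SMAD-binding core CAGAC or its reverse complement GTCTG in capitals. They lie at chr13:56609336-56609585 (plus strand) for Tgfbi, chr4:47352972-47353221 (plus strand, the first of 2 listed starts) for Tgfbr1 and chr9:116175364-116175613 (minus strand) for Tgfbr2.
Tgfbi: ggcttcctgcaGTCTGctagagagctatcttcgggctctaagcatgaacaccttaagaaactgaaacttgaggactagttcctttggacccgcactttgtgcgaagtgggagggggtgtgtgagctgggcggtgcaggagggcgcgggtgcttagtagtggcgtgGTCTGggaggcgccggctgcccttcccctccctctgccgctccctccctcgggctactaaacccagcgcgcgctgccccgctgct
Tgfbr1: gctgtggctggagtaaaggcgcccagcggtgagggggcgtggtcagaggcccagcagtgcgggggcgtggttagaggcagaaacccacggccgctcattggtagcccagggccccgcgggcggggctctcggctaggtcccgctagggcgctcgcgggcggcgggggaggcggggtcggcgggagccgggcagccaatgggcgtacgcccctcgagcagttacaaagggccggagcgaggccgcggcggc
Tgfbr2: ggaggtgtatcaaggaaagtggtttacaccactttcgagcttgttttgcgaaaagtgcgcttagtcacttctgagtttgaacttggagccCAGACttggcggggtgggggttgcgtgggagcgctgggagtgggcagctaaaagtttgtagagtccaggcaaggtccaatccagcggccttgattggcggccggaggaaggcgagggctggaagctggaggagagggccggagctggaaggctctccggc
The Tgfbi window held 2 SMAD cores, the Tgfbr2 window held 1 and this Tgfbr1 window held 0. The window before the second Tgfbr1 start, which is not printed, held 1 SMAD core and 0 GC boxes, and 52.8% of it was G and C. The core is common, as 42.2% of the 32851 promoters of this length held at least 1 on either strand. The printed Tgfbr1 window was 74.8% G and C, the Tgfbi window 62.4% and the Tgfbr2 window 58.4%, against a median of 52.4% over all promoters. GC boxes (GGGCGG, either strand, present in 32.7% of promoters) numbered 2 in the printed Tgfbr1 window, 1 in the Tgfbi window and 0 in the Tgfbr2 window. Neither the SMAD palindrome GTCTAGAC nor the AP-1 motif TGANTCA nor TATAAA occurred in any of these windows. These are matches to letters and say nothing of binding.

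Among the ligands, Tgfb1 codes for the form that most leukocytes make. It lay between 5.98 and 7.53 on the 28 arrays, above the median of all values throughout. In day 12 B16 tumours it read 5.98 and 6.24 on Nrp1-deleted arrays, against 6.67 and 6.78 on control arrays. Both Nrp1-deleted values lay below both control values, as 24.1% of all genes did in that setting. The difference was -0.62 ± 0.16 (adjusted p = 0.00912), and 17.0% of genes passed there. It did not pass without control replicate 2 or Nrp1-deleted replicate 1 (adjusted p up to 0.129). In the early B16 setting the values were 6.75 and 7.11 on Nrp1-deleted arrays and 7.04 and 6.94 on control arrays, and at day 18 they were 6.73, 6.40 and 6.64 on Nrp1-deleted arrays and 6.72, 6.66 and 6.88 on control arrays. The genotypes overlapped at both of those times.

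Averaged over the B16 settings, Tgfb1 was lower in Nrp1-deleted hosts by -0.28 ± 0.09 (adjusted p = 0.0234), in a comparison where 22.6% of all genes passed. An exact permutation test that exchanged genotypes within each setting gave p = 0.0556 (2-sided). The call no longer passed without the day 18 arrays, nor without any 1 of 5 arrays (Nrp1-deleted replicate 1 of the early day and of day 12 and replicate 2 of day 18, and control replicate 1 of the early day and 2 of day 12), with adjusted p up to 0.104. In MC38 tumours, where 19.3% of genes passed on average, Tgfb1 changed by 0.14 (adjusted p = 0.312) and the genotypes overlapped at days 6 and 12. At MC38 day 18 its values were 7.21 and 7.02 on Nrp1-deleted arrays and 6.96 and 6.76 on control arrays, which put both Nrp1-deleted values above, as 19.7% of all genes were there, with an adjusted p of 0.461. The difference between the B16 and MC38 effects was -0.42 ± 0.13 (adjusted p = 0.026). It did not pass without any 1 of 8 arrays, with adjusted p up to 0.0629. These were Nrp1-deleted replicate 1 of early and day 12 B16 and of MC38 days 6 and 18, control replicate 1 of early B16, and control replicate 2 of B16 day 12 and of MC38 days 6 and 18. The macrophage markers described with Tgfbi were lower in the B16 settings too, and their part in the Tgfb1 values was not tested.

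Tgfb2, a ligand made mainly by epithelial and mesenchymal cells, lay below the median of all values on all 28 arrays, between 2.26 and 3.02. No comparison gave a call for it. It was below control on every Nrp1-deleted array in early and day 12 B16 tumours, by -0.13 and -0.18, as 22.9% and 24.1% of all genes were, and these are values of a gene near the bottom of the scale.

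Tgfb3, the third ligand, fell in MC38 tumours, as Tgfbr1 did. At day 6 it read 4.95 and 6.03 in Nrp1-deleted hosts, against 7.09 and 6.94 in controls. At day 12 it read 6.16, 6.20 and 6.59 in Nrp1-deleted hosts, against 7.47, 7.82 and 7.50 in controls. At day 18 it read 7.27 and 7.60 in Nrp1-deleted hosts, against 8.03 and 7.64 in controls. All Nrp1-deleted values lay below all control values at each MC38 day, a pattern that 25.9%, 17.1% and 32.6% of all genes showed at days 6, 12 and 18. The gap was widest at day 6, where the 2 Nrp1-deleted arrays also differed most from each other.

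The fall of Tgfb3 averaged -1.07 ± 0.20 over the MC38 settings (2.1-fold, adjusted p = 0.00048). The exact permutation test gave p = 0.00278 (2-sided), the smallest that its 720 arrangements allow. The fall was 2.88-fold at day 6 (adjusted p = 0.0257, where 2.97% of genes passed) and 2.42-fold at day 12 (adjusted p = 0.00924, where 8.59% passed). The day 6 call no longer passed without Nrp1-deleted replicate 1, control replicate 1 or control replicate 2 (changes of -2.07 to -0.99 over all 4 omissions, adjusted p up to 0.200). It also did not pass with cyclic loess (-1.39, adjusted p = 0.0514) or with only the groups compared in the fit (adjusted p = 0.0937). At day 18 the change of -0.40 did not pass (adjusted p = 0.663, where 5.36% of genes passed).

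In B16 tumours Tgfb3 was closer to the median of all values. Its values were 4.33 and 4.04 in Nrp1-deleted hosts against 4.43 and 4.40 in controls at the early day. Day 12 gave 3.71 and 3.70 in Nrp1-deleted hosts and 4.42 and 3.89 in controls. At day 18 they overlapped, at 3.23, 4.16 and 4.18 in Nrp1-deleted hosts against 3.75, 3.75 and 4.97 in controls. The mean change in B16 was -0.33 (adjusted p = 0.287), and the effect in B16 exceeded that in MC38 by 0.74 ± 0.28, which did not pass (adjusted p = 0.0868, where 14.0% of genes passed). A difference of the Tgfb3 effect between the tumours was therefore not shown. Over all 6 settings the change was -0.70 ± 0.14 (adjusted p = 0.000477, exact permutation p = 0.000328, 2-sided).

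Markers of fibroblasts were lower where Tgfb3 was lower in MC38 tumours. The mean over the 11 fibroblast genes ranged from 4.18 to 4.49 on Nrp1-deleted arrays and from 5.12 to 5.49 on control arrays at MC38 day 6. At day 12 it lay at 3.93 to 4.26 on Nrp1-deleted arrays and 5.19 to 5.28 on control arrays, and at day 18 at 4.62 to 4.67 on Nrp1-deleted arrays and 5.46 to 5.51 on control arrays. In MC38 tumours, where 12.3% of all genes fell, 5 of the 11 did (Col3a1, Dcn, Postn, Pcolce and Serpinf1), by up to -2.18 for Col3a1, and none rose. The defining markers Col1a2 and Lum were below the median of all values on all 28 arrays, and Pdgfra, Pdgfrb and Fap were above it on at most 3. In B16 tumours at day 18, where Tgfb3 overlapped, the same mean was 3.07 to 3.30 on Nrp1-deleted arrays and 4.01 to 4.33 on control arrays. The part of fibroblast RNA in the Tgfb3 values was not tested.

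**Figure D1:**
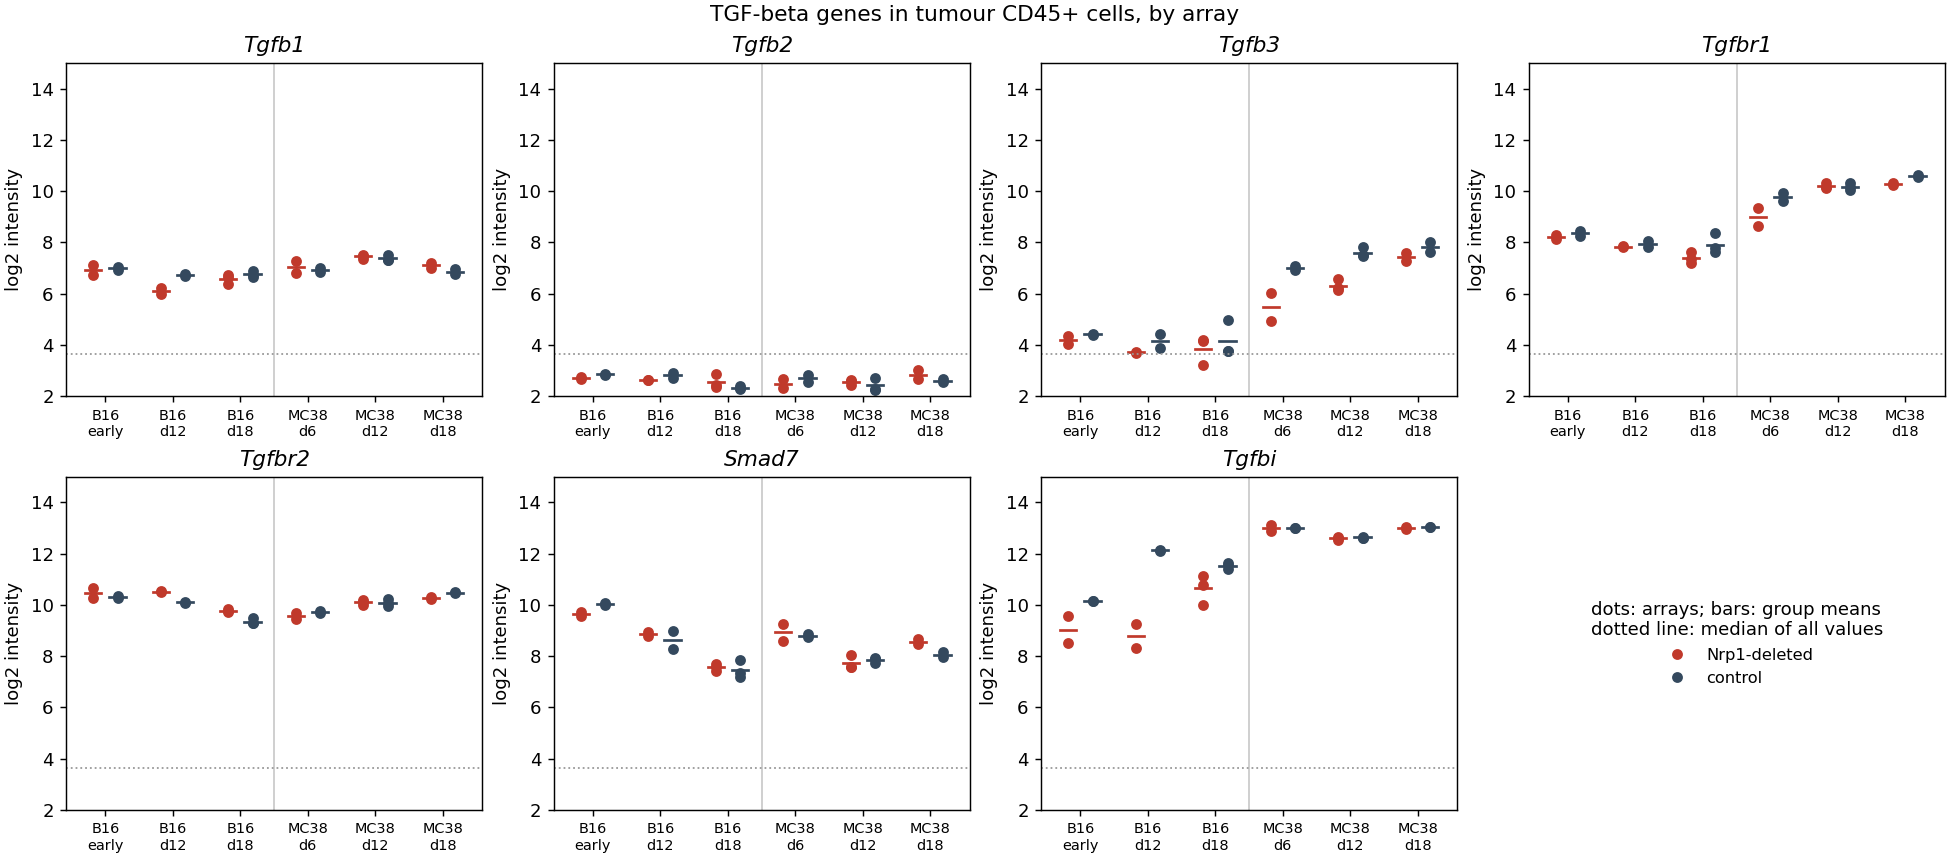
Log2 intensity (y axis) of the 7 measured TGF-beta genes, 1 panel each, on each of the 28 arrays (points), by tumour and day with Nrp1-deleted arrays left of control arrays; bars mark group means and the dotted line the median of all values. Tgfbi separates by genotype at each B16 time and lies near 13 in every MC38 array, and Tgfb3 separates at each MC38 day.

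Of the receptors, Tgfbr1 (the type 1 receptor kinase) fell over the 6 settings by -0.31 ± 0.08 (1.24-fold, adjusted p = 0.0034, exact permutation p = 0.00123, 2-sided). In MC38 tumours the fall was -0.36 ± 0.11 (adjusted p = 0.021, exact permutation p = 0.0361). By day, 1 of the 3 MC38 settings gave a call. At MC38 day 6 it read 9.33 and 8.63 in Nrp1-deleted hosts, against 9.94 and 9.63 in controls, a change of -0.80 ± 0.20 (adjusted p = 0.0301). At MC38 day 18 Tgfbr1 read 10.33 and 10.24 in Nrp1-deleted hosts, against 10.64 and 10.57 in controls, and did not pass (adjusted p = 0.445). All Nrp1-deleted values lay below all control values at both days, as 25.9% and 32.6% of all genes did at days 6 and 18. At MC38 day 12 the 6 values lay between 10.04 and 10.31 and overlapped.

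In day 18 B16 tumours Tgfbr1 was 7.65, 7.36 and 7.18 in Nrp1-deleted hosts and 8.35, 7.62 and 7.78 in controls. The highest Nrp1-deleted value lay just above the lowest control value. The change was -0.52 ± 0.16 (adjusted p = 0.0267, in a setting where 18.8% of genes passed). It did not pass in early or day 12 B16 tumours, nor on average over the B16 settings (-0.26, adjusted p = 0.102). The exact permutation test, which is not adjusted over genes, gave p = 0.0333 (2-sided) for that B16 mean. The effect in B16 less that in MC38 was 0.11 and did not pass (limma, adjusted p = 0.722). The MC38 day 6 call no longer passed without Nrp1-deleted replicate 2 or either control array (changes of -1.15 to -0.45 over all 4 omissions, adjusted p up to 0.361), with no variance trend (adjusted p = 0.055) or with only the groups compared (adjusted p = 0.162). The MC38 mean no longer passed without control replicate 1 or Nrp1-deleted replicate 2 of day 6 or day 18 (adjusted p up to 0.116). The B16 day 18 call no longer passed without control replicate 1 or Nrp1-deleted replicate 2 or 3 (changes of -0.67 to -0.30 over all 6 omissions, adjusted p up to 0.213), nor with only the groups compared (adjusted p = 0.121).

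The other probe sets of Tgfbr1 were dim, with means of 3.87 and 3.16, and gave no call. Their r with the brightest 1 was 0.92 and 0.63, after subtracting each array set's mean. An r taken this way, here and below, includes the gap between tumours in the set that holds both. It is therefore not a measure of the genotype difference alone. Over the 6 settings these dim probe sets changed by -0.07 and -0.11 (limma, adjusted p = 0.747 and 0.427). With the mean of the 3 Tgfbr1 probe sets in place of the brightest, no genotype call of this gene passed. The change was then -0.16 over the 6 settings (adjusted p = 0.0797), -0.18 in MC38 (adjusted p = 0.203), -0.28 at MC38 day 6 (adjusted p = 0.504) and -0.38 at B16 day 18 (adjusted p = 0.0735). The genotype calls of Tgfbr1 therefore rest on 1 probe set. The fibroblast markers described with Tgfb3 were lower in Nrp1-deleted hosts where Tgfbr1 was called, at MC38 day 6 and B16 day 18, and also at MC38 day 12, where Tgfbr1 overlapped. Their part in the Tgfbr1 values was not tested.

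Tgfbr2, the type 2 receptor that binds the ligand, went the other way in B16 tumours. In day 12 B16 tumours it read 10.55 and 10.49 in Nrp1-deleted hosts, against 10.08 and 10.11 in controls. At B16 day 18 it read 9.84, 9.77 and 9.71 in Nrp1-deleted hosts, against 9.47, 9.27 and 9.27 in controls. Every Nrp1-deleted value lay above every control value at both times, as 31.6% and 13.6% of all genes did at days 12 and 18. Early B16 values overlapped, with 10.28 and 10.64 in Nrp1-deleted hosts and 10.36 and 10.27 in controls.

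The rise of Tgfbr2 in B16 averaged 0.34 ± 0.06 (1.26-fold, adjusted p = 0.000153, exact permutation p = 0.00556, 2-sided). It was 0.43 at day 12 (adjusted p = 0.0074, and up to 0.0689 without control or Nrp1-deleted replicate 1) and 0.44 at day 18 (adjusted p = 0.00103). In MC38 tumours it changed by -0.12 (adjusted p = 0.194), with values of 9.45 to 10.29 in Nrp1-deleted hosts and 9.68 to 10.48 in controls. At MC38 day 18 both Nrp1-deleted values lay below both control values, as 32.6% of all genes did, by -0.22 (adjusted p = 0.298). The effect was higher in B16 than in MC38 by 0.45 ± 0.08 (adjusted p = 0.00064).

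The other 2 probe sets of Tgfbr2 did not follow the brightest 1 closely. The second, with a mean of 5.85, had a Pearson r of 0.32 with it over the 28 arrays, after subtracting each array set's mean. The B16 change of this second probe set, 0.38, did not pass (adjusted p = 0.0529), though its difference between tumours did (0.68, adjusted p = 0.0238). The third, with a mean of 2.78, was above the median of all values on no array, and its r, taken the same way, was -0.51. With the mean of the 3 probe sets the B16 change was 0.22 and passed (adjusted p = 0.0254), and the changes at day 12 (0.35, adjusted p = 0.0668) and day 18 (0.15, adjusted p = 0.371) did not. Cytotoxic T cell genes were also higher in Nrp1-deleted hosts in B16, 7 of 8 with a median change of 0.92, where 1758 of 17097 genes were higher. Tgfbr2 was called at B16 days 12 and 18 and overlapped at the early day. At the early day, day 12 and day 18, 0, 1 and 0 of the 8 cytotoxic T cell genes passed. Of all genes, 0.445%, 17.0% and 18.8% passed there. The mean of the 8 was higher without overlap at each of these times, by 0.93, 1.01 and 0.64. The same genes were higher in MC38 tumours too, 7 of 8 with a median of 1.06, where 1191 of 17097 genes were higher. Their part in the Tgfbr2 values was not tested.

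**Figure D2:**
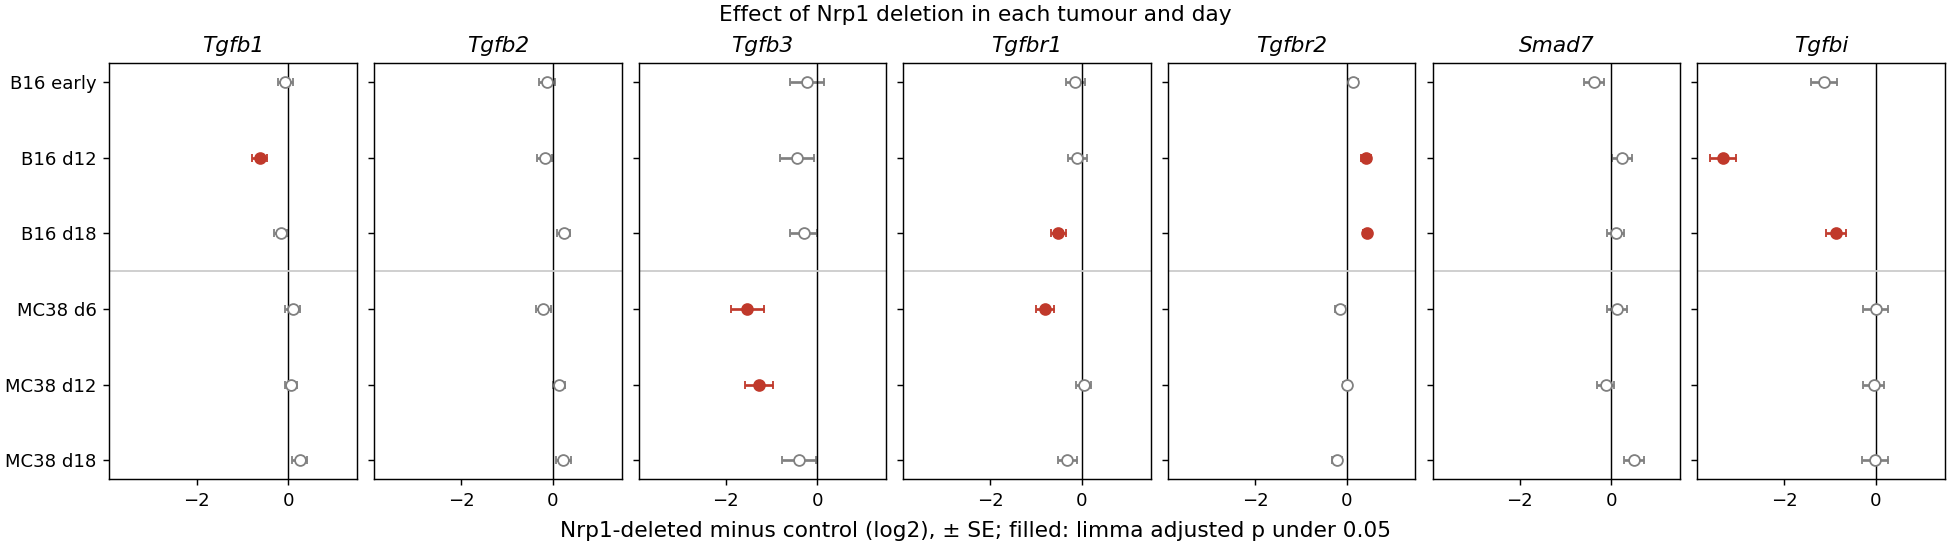
Nrp1-deleted minus control difference in log2 intensity for each measured TGF-beta gene (panels) in each tumour and day (rows), with bars of 1 SE from the limma model and filled points where the adjusted p was under 0.05. Tgfbi is lowest at B16 day 12 (-3.33), Tgfb3 is below 0 at each MC38 day and Tgfbr2 is above 0 at each B16 time.

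Smad7, the inhibitory SMAD, had no genotype call in any of the 6 settings or in their means. Its values lay between 7.19 and 10.05. In early B16 tumours it read 9.55 and 9.72 in Nrp1-deleted hosts, against 9.97 and 10.05 in controls, below control as 22.9% of all genes were (adjusted p = 0.667). At MC38 day 18 it read 8.48 and 8.64 in Nrp1-deleted hosts, against 8.17 and 7.94 in controls, above control as 19.7% of all genes were (0.50, adjusted p = 0.22). The signs thus differed between these settings, and neither difference passed.

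Tgfbi codes for a secreted matrix protein that macrophages and other cells make in response to TGF-beta, and it gave the widest genotype difference among the 7 genes. In early B16 tumours it read 9.55 and 8.50 in Nrp1-deleted hosts, against 10.16 and 10.15 in controls. At B16 day 12 it read 8.33 and 9.26 in Nrp1-deleted hosts, against 12.10 and 12.15 in controls. At B16 day 18 it read 10.79, 10.00 and 11.14 in Nrp1-deleted hosts, against 11.54, 11.38 and 11.62 in controls. Every Nrp1-deleted value lay below every control value at each B16 time, as 22.9%, 24.1% and 15.8% of all genes did at the early day, day 12 and day 18. The SD among arrays at the 3 times was 0.74, 0.65 and 0.58 in Nrp1-deleted hosts, against 0.01, 0.04 and 0.12 in controls.

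The fall of Tgfbi averaged -1.78 ± 0.15 over the B16 settings (3.43-fold, adjusted p = 9.77e-09, exact permutation p = 0.00278, 2-sided, the smallest allowed). It was 10.1-fold at day 12 (-3.33 ± 0.28, adjusted p = 8.79e-09) and 1.83-fold at day 18 (-0.87 ± 0.23, adjusted p = 0.00799). The test takes 1 spread per gene over all 12 groups, so these SEs do not fully reflect the wider spread among Nrp1-deleted B16 arrays. At the early day the change of -1.13 ± 0.28 did not pass (adjusted p = 0.0714, where 0.445% of genes passed). On leaving out 1 of the 4 arrays it lay between -1.66 (without Nrp1-deleted replicate 1) and -0.61 (without Nrp1-deleted replicate 2). The day 18 call no longer passed without Nrp1-deleted replicate 2, the lowest of the 3 (-0.55, adjusted p = 0.0902). A second probe set of Tgfbi tracked the first with an r of 0.98, after subtracting each array set's mean. This second probe set gave -1.93 in B16 (adjusted p = 2.42e-09) and -3.70 at day 12 (adjusted p = 1.72e-09).

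In MC38 tumours Tgfbi did not separate by genotype. It read 13.12 and 12.87 in Nrp1-deleted hosts against 12.99 and 13.0 in controls at day 6. Day 18 gave 13.05 and 12.96 in Nrp1-deleted hosts and 13.03 and 13.02 in controls. At day 12 it read 12.63, 12.61 and 12.53 in Nrp1-deleted hosts, against 12.62, 12.66 and 12.61 in controls. These values stood near the top of the scale, since 0.884% of all values of the genes measured were at or above 12, and whether the probes were saturated was not tested. The second probe set read lower, with a mean of 10.37 over all arrays, and its MC38 change was -0.06 (adjusted p = 0.846). The effect in B16 less that in MC38 was -1.76 ± 0.21 (adjusted p = 8.9e-06).

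Macrophage markers were lower where Tgfbi was lower in B16 tumours. The mean over the 10 measured macrophage genes ranged from 6.17 to 7.58 on Nrp1-deleted arrays and from 7.66 to 7.80 on control arrays in early B16 tumours. At B16 day 12 it lay at 5.88 to 6.49 on Nrp1-deleted arrays and 9.76 to 9.79 on control arrays, and at B16 day 18 at 7.53 to 8.0 on Nrp1-deleted arrays and 8.88 to 9.73 on control arrays. All 10 fell in B16 tumours, where 12.3% of all genes fell. In MC38 tumours none of the 10 passed in either direction, where 19.3% of all genes passed. The same mean overlapped between genotypes at MC38 days 6 and 12. At MC38 day 18 it was 11.05 to 11.15 on Nrp1-deleted arrays and 11.49 to 11.51 on control arrays, lower by 0.40 on the log2 scale, in a setting where Tgfbi overlapped. All 10 were measurable, with Mrc1 below the median of all values on 1 array and the others on none. Dendritic cell genes (6 of 6) and pigment-cell genes (10 of 10) fell in B16 as well. The part of these cells in the Tgfbi values was not tested.

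**Figure D3:**
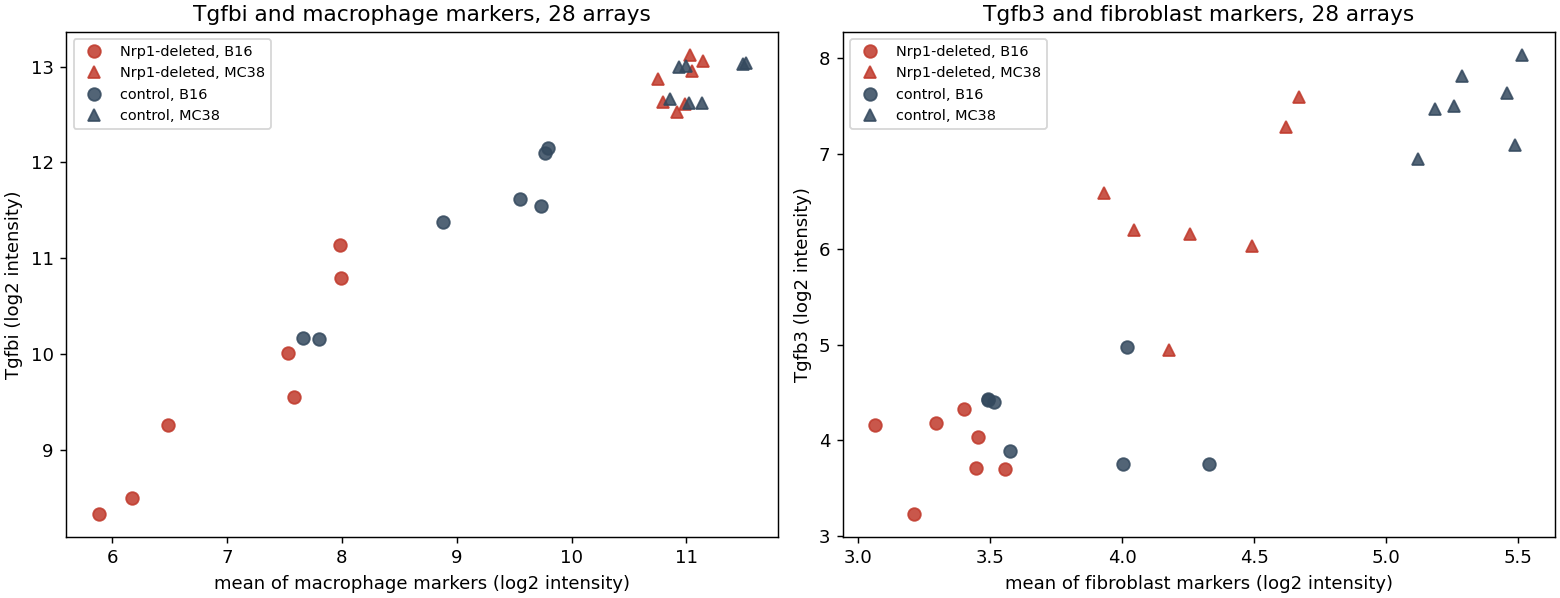
Left, Tgfbi log2 intensity (y axis) against the mean log2 intensity of 10 macrophage markers (x axis); right, Tgfb3 against the mean of 11 fibroblast markers; each point is 1 of 28 arrays, coloured by genotype and shaped by tumour. In B16 at day 12 Nrp1-deleted arrays have the lower macrophage means (5.88 and 6.49, against 9.76 and 9.79 in controls) and the lower Tgfbi. MC38 day 12 Nrp1-deleted arrays, with fibroblast means of 3.93 to 4.26, have Tgfb3 at 6.16 to 6.59, above B16 day 18 controls with means of 4.01 to 4.33. Those groups differ in tumour, day and genotype at once, and the part of fibroblast RNA was not tested. Arrays share normalization sets and cell sources.

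Changes with time were tested where both days shared an array set. In MC38 controls 3 of the 7 genes differed between day 18 and day 6, where 8.94% of all genes did. Tgfbr2 was higher at day 18 by 0.77 ± 0.11 (adjusted p = 7.74e-05) and Tgfbr1 by 0.82 ± 0.20 (adjusted p = 0.0109). Smad7 was lower at day 18 by -0.74 ± 0.22 (adjusted p = 0.0361), a call lost without any 1 of the 4 arrays and with no variance trend (adjusted p up to 0.252). The Tgfbr1 call was lost without control replicate 2 of day 6 or either day 18 array (adjusted p up to 0.147), and the Tgfbr2 call with the mean of its 3 probe sets (0.27, adjusted p = 0.261). Tgfb3 was higher by 0.82 without passing (adjusted p = 0.198).

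In Nrp1-deleted hosts with MC38 tumours, 3 of the 7 were higher at day 18 than at day 6, where 1.94% of all genes differed and 1.19% were higher. Tgfb3 rose by 1.95 ± 0.37 (3.86-fold, adjusted p = 0.00403), Tgfbr1 by 1.30 ± 0.20 (adjusted p = 0.000608) and Tgfbr2 by 0.69 ± 0.11 (adjusted p = 0.000858). The Tgfb3 call no longer passed without replicate 2 of day 18 (adjusted p = 0.0933), and the Tgfbr2 call did not pass with the mean of its 3 probe sets (0.13, adjusted p = 0.795). With only the groups compared in the fit, neither passed (adjusted p = 0.0528 for Tgfb3 and 0.0706 for Tgfbr2). The effect of genotype was not shown to differ between day 18 and day 6 for any member, in a comparison where 0.0819% of genes passed. The Tgfb3 difference was 1.13 ± 0.52 (adjusted p = 0.705). Whether Tgfb3 rose more in Nrp1-deleted hosts than in controls was therefore not shown.

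In B16 controls, where 16.1% of all genes differed between day 12 and the early day, Tgfbi rose by 1.97 ± 0.28 (3.92-fold, adjusted p = 1.99e-05) and Smad7 fell by 1.40 ± 0.22 on the log2 scale (adjusted p = 7.57e-05). Control Smad7 read 8.26 and 8.97 at day 12, against 9.97 and 10.05 at the early day. In Nrp1-deleted hosts, where 16.2% of genes differed, Smad7 read 8.93 and 8.77 at day 12, against 9.55 and 9.72 at the early day, and fell by 0.78 on the log2 scale (adjusted p = 0.0161). That call was lost without either day 12 array or replicate 2 of the early day (adjusted p up to 0.116). Tgfb1 fell by 0.82 ± 0.16 in these hosts (adjusted p = 0.00102), and its control change of -0.26 did not pass (adjusted p = 0.352).

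Tgfbi did not rise in Nrp1-deleted hosts between these times (-0.23, adjusted p = 0.696). The genotype effect on Tgfbi was lower at day 12 than at the early day by -2.20 ± 0.39 (adjusted p = 0.000802), in a test of the difference where 6.29% of all genes passed. The 10 macrophage genes all rose in B16 controls between the same times, where 1562 of 17097 genes rose. In Nrp1-deleted hosts 3 of the 10 fell and none rose, where 1213 of 17097 genes fell. The Tgfb1 effect was not shown to differ between these times by limma's test of the difference (-0.56 ± 0.23, adjusted p = 0.181).

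**Figure D4:**
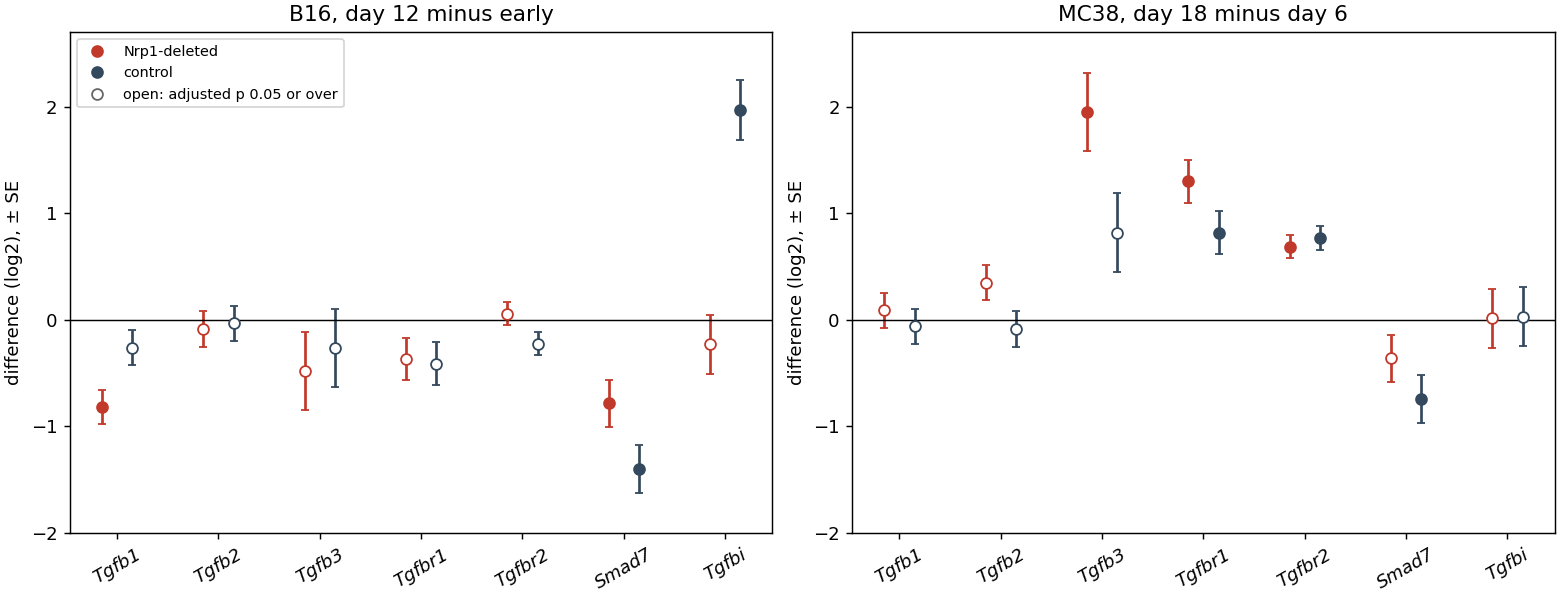
Later minus earlier difference in log2 intensity of the 7 genes with bars of 1 SE, for B16 day 12 minus the early day (left) and MC38 day 18 minus day 6 (right), in Nrp1-deleted and control hosts. Tgfb3, Tgfbr1 and Tgfbr2 lie above 0 in MC38 in both genotypes, and Tgfbi lies at 1.97 in B16 controls and at -0.23 in Nrp1-deleted hosts with B16 tumours.

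Within each array set the levels of the groups could be ordered. For Tgfb3 the MC38 order was day 18 control, day 18 Nrp1-deleted, day 6 control and day 6 Nrp1-deleted from high to low, with no overlap between neighbours. Tgfbr1 had the same order in that set without overlap. For Tgfbi the B16 order was day 12 control, early control, early Nrp1-deleted and day 12 Nrp1-deleted, and the last 2 overlapped. Tgfb1 overlapped between all neighbouring groups of MC38 days 6 and 18. In the set that held both tumours, MC38 day 12 lay above B16 day 18 without overlap for Tgfb1, Tgfb3, Tgfbr1, Tgfbr2 and Tgfbi, whereas the neighbouring groups overlapped for Smad7 and Tgfb2. The share of all genes with such orders between days or tumours was not counted, so whether they are unusual cannot be said.

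Other genes of the pathway were taken from 4 lists that hold 49 genes, of which 46 were measured. Among 8 co-receptors and related receptors, 6 fell over the 6 settings and none rose, with a median of -0.43, where 17.9% of all genes fell. Acvrl1, the type 1 receptor used in endothelial cells, fell by 0.91 on the log2 scale (adjusted p = 3.7e-07). Acvr1, a type 1 receptor for bone morphogenetic proteins (BMP), fell by 0.81 on the log2 scale (adjusted p = 4.45e-07). Eng, the co-receptor endoglin, fell by 0.60 on the log2 scale (adjusted p = 6.18e-05) and the activin receptor Acvr2a by 0.54. In B16 tumours, where 12.3% of all genes fell, 6 of the 8 did, with a median of -0.91 against 0.01 over all genes, among them Bmpr2 (-0.85) and Acvr1b (-0.50). In MC38 tumours, where 12.3% of all genes fell too, 1 of the 8 did.

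Among 14 measured genes of latency and activation, 2 rose and 7 fell over the 6 settings, against 11.0% and 17.9% of all genes. Mmp2, a gelatinase, changed by -1.02 (adjusted p = 4.78e-07) and the membrane metalloproteinase gene Mmp14 by -0.73 (adjusted p = 1.33e-06). Itgb5, a partner of the alpha-v integrin chain, changed by -0.76 (adjusted p = 6.53e-05), and Nrros, which holds latent TGF-beta on myeloid cells, by -0.26 (adjusted p = 0.00812). In MC38 tumours the alpha-v chain Itgav rose by 0.27 (adjusted p = 0.00376) and its partner Itgb3 by 1.03 (adjusted p = 0.000414). Itgb3 changed by -0.26 in B16 tumours (adjusted p = 0.395), and the difference between the tumours was -1.29 (adjusted p = 0.00183).

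Among 13 measured SMAD proteins and regulators, 1 rose and 3 fell. That is 4 of 13 where 28.8% of all genes passed, a share near the background, and their median of -0.04 was close to the -0.03 of all genes. Smad4, the common partner SMAD, rose by 0.27 (adjusted p = 0.000239). Smad1, a BMP-pathway SMAD, fell by 0.26 on the log2 scale, the inhibitory Smad6 by 0.42 and the decoy receptor gene Bambi by 0.36. In MC38 tumours the repressor gene Ski fell by 0.34 on the log2 scale (adjusted p = 0.0113), and its relative Skil rose by 0.23 (adjusted p = 0.0264).

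Among 11 measured genes known to respond to TGF-beta, 7 fell over the 6 settings and none rose, with a median of -0.70, where 17.9% of all genes fell. In B16 tumours 6 fell (median -0.90) and in MC38 tumours 4 fell (median -0.30), and 12.3% of all genes fell in each. Id1 changed by -1.06 and Id3 by -0.77, both inhibitors of helix-loop-helix factors that BMP signals induce. Ccn2, a matrix-associated growth factor, changed by -0.70 and the cell cycle inhibitor gene Cdkn1a by -0.57. In B16 tumours the matrix gene Fn1, fibronectin, fell by 1.94 on the log2 scale (adjusted p = 2.86e-07) and the integrin gene Itgae, known for tissue-resident T cells and dendritic cells, by 1.69 (adjusted p = 4.51e-06). Itgae thus moved opposite to the cytotoxic T cell genes in these tumours. Fn1 and Ccn2 are also made by macrophages or fibroblasts, whose markers are given above, and their part here was not tested.

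**Figure D5:**
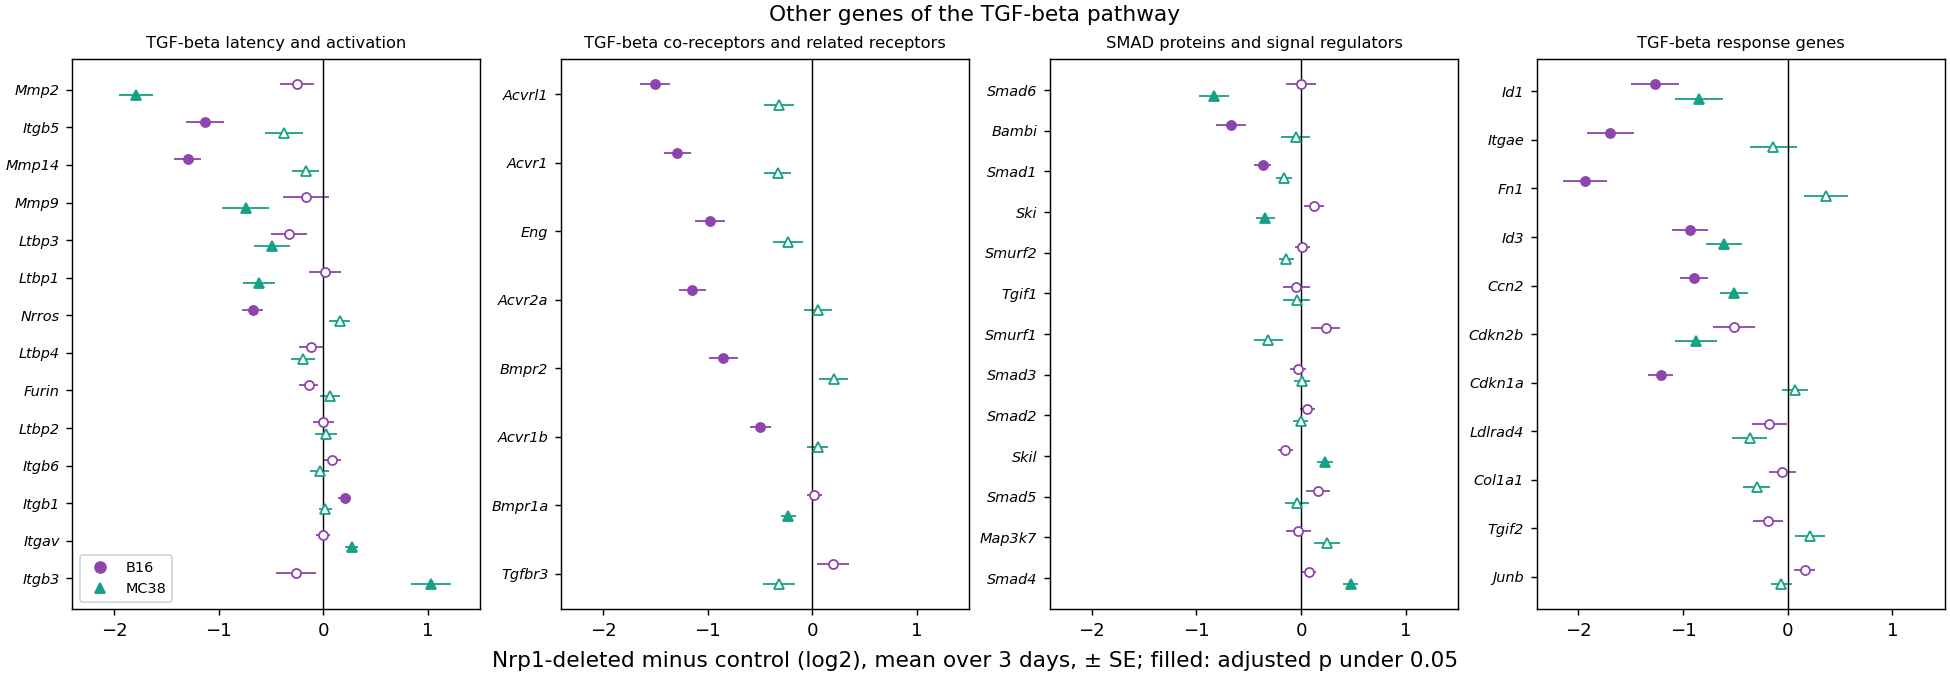
Nrp1-deleted minus control difference in log2 intensity for the measured genes of the 4 pathway lists, in B16 and in MC38 tumours, with the genes that passed limma's test marked. The co-receptors and the response genes lie mostly below 0 in B16 (medians -0.91 and -0.90), and the SMAD proteins and regulators are centred near 0.

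The genes whose values were most like each member over the 28 arrays, after subtracting each set's mean, were found among 10091 genes with a mean above the median of all values. For Tgfbi these were Fcgr2b (r = 0.99), App (r = 0.99) and Fcgr3 (r = 0.99). For Tgfbr1 they were Col14a1 (r = 0.97), Dtx4 (r = 0.97) and Cxcl14 (r = 0.97). Tgfb3 was most like Zmynd15, Sh2d1b1 and Htra1 (r = 0.93, 0.93 and 0.92). Those of Tgfbr2 were Mapk14, Serinc3 and Tlk1 (r = 0.92, 0.91 and 0.91), those of Tgfb1 were Tm2d2, Ero1b and Rab6a (r = 0.91, 0.91 and 0.89), and those of Smad7 were Tnip1, Nrarp and Hexim1 (r = 0.86, 0.85 and 0.85). Among the members themselves the highest value was between Tgfb3 and Tgfbr1 (r = 0.87), and the lowest was between Smad7 and Tgfbi (r = -0.12). These values describe arrays that share tumours, genotypes and normalization.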

How the data were processed

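RNA of CD45+ cells sorted from tumours was extracted with a column kit and amplified in cycles before labelling, per the labels' protocols, and hybridised to Affymetrix arrays. Deposited log2 values were used as given; the submitters' processing notes name RMA and Partek 6.6 as the authors' tools. They are array intensities, so the number of arrays limits the precision. Symbols came from the platform's probe annotation, in which 28898 of 45141 probe sets name 1 gene and 551 name several, and each gene was represented by its brightest probe set. With limma 3.58.1 (R 4.3.3), 1 mean per group (12 in all) was estimated from the 28 arrays, without a filter on dim genes; the prior variance followed intensity, and p-values were adjusted by Benjamini-Hochberg over 17097 genes at a threshold of 0.05. Permutation tests were exact and 2-sided. Contrasts are Nrp1-deleted minus control, or later minus earlier.

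The genes of the set, the pathway and marker lists and the tests were chosen with earlier results of these data known. All 9 genes are named, with examples from each pathway list taken by smallest adjusted p (up to 4 over the 6 settings and up to 2 others in B16 or MC38), and the 3 genes most correlated with each member. Promoter windows are from RefSeq (GRCm38.p6) and were listed for 6 of the 9 genes. The model was run on simulated data in which each gene had the same spread in all groups. That run cannot show how unequal spread between groups, as for Tgfbi, affects the calls. Numbers shared by replicates did not pair the arrays in every setting. The correlation of their deviations lay between -0.276 and 0.196, and was over 0.1 in 4 of 22 pairs. Where groups held 2 arrays, both pairs give 1 value by construction, so the pairs are not all separate. The lowest correlation between arrays of a group was 0.984, and no 2 arrays held identical values. Alternatives are given in the closing section.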

Additional observations from a re-analysis of the deposited data

Results flagged for a closer look

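The effect of Nrp1 deletion differed between tumours for 3 of the genes, by limma's test of the difference. For Tgfbi the effect in B16 less that in MC38 was -1.76 (adjusted p = 8.9e-06), for Tgfbr2 it was 0.45 (adjusted p = 0.00064), and for Tgfb1 it was -0.42 (adjusted p = 0.026). In B16 the Tgfbi effect also differed between times, by -2.20 at day 12 relative to the early day (adjusted p = 0.000802). The Tgfbi and Tgfbr2 differences passed under every alternative run, and the Tgfb1 difference was lost on leaving out any 1 of 8 arrays. The B16 and MC38 arrays share an array set only between B16 day 18 and MC38 day 12, so the difference between tumours is partly one between sets, within which each genotype effect was taken.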

How the results depend on the processing

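Of 112 values (7 genes in 16 comparisons), 31 passed. Over 595 alternatives these kept their direction and passed in 535, kept it without passing in 60 and turned in 0, and 14 passed under every alternative run. Of the other 81, a value passed in 20 alternatives, and in 64 a value that passed in neither fit changed sign. With the mean over probe sets, 1 member passed in place of 2 in the MC38 mean, 1 in place of 3 at B16 day 18 and 1 in place of 2 at MC38 day 6. At MC38 day 6 the count was also 1 with cyclic loess and with no variance trend. With only the groups compared in the fit, it was 0 at MC38 day 6, 2 in place of 0 at MC38 day 18, 1 in place of 3 for MC38 day 18 against day 6 in Nrp1-deleted hosts, and 4 in place of 2 for B16 day 12 against the early day in controls. On leaving out 1 array in turn, the count ranged from 1 to 2 in the MC38 mean, 0 to 1 at early B16 (0 with all arrays), 1 to 3 at B16 days 12 and 18 (3 with all), and 0 to 1 at MC38 day 6. It ranged from 1 to 2 for MC38 day 18 against day 6 in controls and for B16 day 12 against the early day in Nrp1-deleted hosts. Without the B16 day 18 arrays, chosen after seeing the data, the count in B16 was 2, and the Tgfbi change was -2.23.

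The replicate number was entered as a block only here, since no labels state such a design. The check of pairing gave mixed results. With the replicate block, the count of members was 4 in place of 3 in B16, where Tgfbr1 was added, and in the other 15 comparisons it was as without it. At B16 day 18 each of 6 arrays correlated best with its own number, and at MC38 day 12 0 of 6 did.

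Counts over all genes moved by over 1.5 times in these cases. For only the groups compared, 15 genes passed in place of 76 at early B16, 2141 in place of 3217 at B16 day 18, 104 in place of 508 at MC38 day 6, 723 in place of 1468 at MC38 day 12 and 1862 in place of 917 at MC38 day 18. For the changes with time it was 2692 in place of 1528 in MC38 controls and 121 in place of 332 in Nrp1-deleted hosts, and for the B16 difference of effects 1711 in place of 1075. With the block it was 229 at MC38 day 6 and 517 at MC38 day 18. Early B16 fell to 42 with the mean over probe sets and 33 with no variance trend, MC38 day 12 had 2309 with all probe sets tested, and B16 had 2285 in place of 3868 without day 18. The MC38 difference of effects, 14 genes, ranged from 0 to 33 over these alternatives. On leaving out 1 array, counts reached from 0 to 294 at early B16, 1802 to 2157 in place of 2900 at B16 day 12, 59 to 635 at MC38 day 6, 733 to 1552 at MC38 day 12 and 262 to 315 at MC38 day 18. With time they reached from 663 to 711 in MC38 controls, 77 to 981 in Nrp1-deleted hosts with MC38, 1712 to 1752 in place of 2745 in B16 controls and 1637 to 1909 in place of 2776 in Nrp1-deleted hosts with B16. The differences of effects reached from 601 to 980 in B16 and 0 to 122 in MC38. Cyclic loess moved the share of calls that were higher to 53.8% from 36.1% in MC38, 28.3% from 48.3% for the difference between tumours, 55.5% from 33.1% at MC38 day 6 (47.0% with 75th percentile centring), 56.6% from 43.3% at MC38 day 12 and 71.6% from 58.2% at MC38 day 18. For the MC38 difference of effects it was 66.7%, and 50% with percentile centring, in place of 78.6%. The median over all genes moved by under 0.1 throughout. Tgfb2 lay under the median of all values, where the arrays resolve little, and 2 arrays per group set the precision in 4 of the 6 settings.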
